A study of Homo sapiens with 3 samples.

Results

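The 10 genes ST3GAL1, SNAPC4, MAN2B2, HAGH, UBE2O, ANKS1A, DAZAP1, NOTCH3, INTS1 and DAPK3 each carry a stretch of chromatin that was sparsely covered by H3K36me3 peaks in untreated LNCaP cells and widely covered after dihydrotestosterone (DHT). They were chosen by that difference: peaks of both libraries lying at most 5 kb apart were joined into blocks, and blocks of at least 10 kb, in which either library covered 5 kb or more, counted as gained where the covered length was at least 4-fold higher after DHT. Of 2676 blocks compared, 42 were gained (1.57%), and the blocks over these genes are 10 of the 42. How these 10 were picked among the 42 is not stated. Their block values are a description and carry no test. LNCaP is an established androgen-responsive prostate cancer line. Chromatin immunoprecipitation sequencing of trimethylated lysine 36 of histone H3 was made from untreated cells and from cells given 100 nM DHT for 4 h in red-free RPMI, with 1 library each, and both kinds of cells were kept in RPMI with 10% serum. For the other library the labels state no treatment and no change of medium, so the effects of hormone and medium cannot be told apart. With 1 library per condition there is no replicate check, and the intervals given cover counting error only, taking peaks as independent. An input library was not analysed here.

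H3K36me3 is laid down over transcribed gene bodies by SETD2, which travels with elongating RNA polymerase II, so the mark is typically low at the gene start and builds up toward the gene end. DHT is the potent androgen that activates the androgen receptor, a transcription factor on which prostate epithelium and most prostate cancers depend. The genes listed here belong to no single pathway. ST3GAL1 and MAN2B2 act on glycans, HAGH on a metabolic by-product, SNAPC4, INTS1 and DAZAP1 on RNA synthesis and processing, and UBE2O, ANKS1A, NOTCH3 and DAPK3 in protein turnover and signalling.

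The whole lists were similar in size. After DHT there were 1.12 times as many peaks on nuclear chromosomes (131798 against 117564), covering 1.03 times as much sequence, and the number of reads behind either list is unknown. Over the 10 gained blocks, 167 kb in all, untreated peaks covered 12672 bp (7.58%) and DHT peaks 103154 bp (61.7%), a ratio of 8.14 (95% counting interval 3.55 to 18.7). The 4-fold rule kept this ratio from falling below 4, so its interval does not test a difference. For each of the 10 blocks taken singly, the counting interval of DHT minus untreated covered length took in both signs. Its lower limit ran from -6733 bp in DAPK3 to -912 bp in MAN2B2. The covered length per block ran from 0 to 3206 bp in untreated cells and from 7562 to 14776 bp after DHT. That these ranges do not overlap follows from choosing the blocks by the same covered lengths. The median block had 4.87% of its length covered in untreated cells and 64.1% after DHT. Over all compared blocks the medians were 23.9% and 24.6%. Among the 10 genes, the blocks nearest to the 4-fold threshold were HAGH at 4.20-fold, DAPK3 at 4.32-fold and SNAPC4 at 4.61-fold. Just below it, among all compared blocks, lay blocks on chromosome 19 (3.92-fold), chromosome 22 (3.90-fold) and chromosome 12 (3.82-fold).

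**Figure D1:**
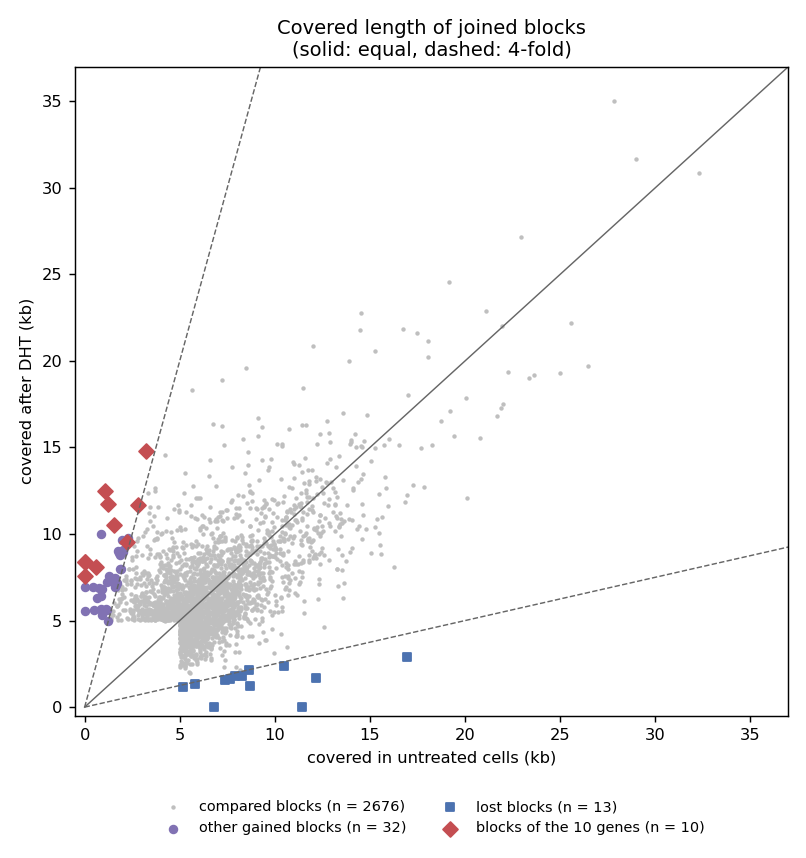
Covered length of each joined block in untreated cells (x axis, kb) and after DHT (y axis, kb) for the 2676 compared blocks, 1 library per condition. The blocks of the 10 genes lie at 0 to 3206 bp on the x axis and 7562 to 14776 bp on the y axis, above the 4-fold line that chose them, while the 13 lost blocks lie below the opposite line.

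Among the genes of glycan processing, ST3GAL1, a Golgi sialyltransferase that caps O-linked glycans with sialic acid, had its gained block at chr8:134466630-134488807 (hg19), over the last part of a gene of 117 kb. There a single untreated peak covered 1077 bp, and 4 DHT peaks covered 12460 bp. The untreated peak was not overlapped by any of those 4. The widest of them, chr8:134469935-134477424, was 7490 bp wide, rank 6 by width in the DHT list, with a score of 68.3, which lies at the 30.9 percentile of that list. The score is the authors' value per peak and is read only within its own list. MAN2B2, a lysosomal alpha-mannosidase that trims N-linked oligosaccharides, had its block at chr4:6606179-6631762, where the untreated library covered 1251 bp and the DHT library 11729 bp. Both libraries shared a peak at its near edge, 992 bp wide in untreated cells and 1050 bp after DHT, scoring at the 94.6 and 90.7 percentile of their lists. Beyond that edge the DHT library had 6 more peaks, among them 1 of 4109 bp with a score of 146, and the untreated library had 1 of 259 bp.

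HAGH, the second enzyme of the glyoxalase system, which hydrolyses the glutathione adduct formed from methylglyoxal, had its block at chr16:1854105-1873198. This covers most of a gene of 18 kb. Its 3 untreated peaks covered 2784 bp and its 6 DHT peaks 11695 bp. The widest DHT peak was 3597 bp wide, with a score of 133. All 3 untreated peaks were met by DHT peaks, over 2134 bp in all, and between 1865401 and 1873121 the DHT peaks ran on almost without a break. It was the only one of the 10 with another gained block close by, 22.6 kb away, whereas the other 9 were at least 733 kb from the next.

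Of the genes acting on RNA, SNAPC4, the largest subunit of the complex that starts transcription of small nuclear RNA genes, went from 3206 bp covered to 14776 bp at chr9:139269384-139289949. The single untreated peak, 3206 bp wide, was matched by a DHT peak of 3130 bp lying wholly inside it. The other 3 DHT peaks, 2105 to 5714 bp wide, had no untreated counterpart, and their scores of 53.4 to 74.2 were below the DHT list's median of 85.7. INTS1, a subunit of the Integrator complex that processes small nuclear RNAs and terminates transcription near promoters, went from 607 to 8115 bp at chr7:1507509-1524595. The 2 DHT peaks, 4936 and 3179 bp wide with scores of 60.2 and 72.9, flanked the untreated peak without touching it. DAZAP1, an RNA-binding protein that takes part in splice site choice, had no untreated peak and 8375 bp of DHT peaks at chr19:1408750-1420234. Its 3 DHT peaks scored 50.3 to 74.1, the lowest of them at the 0.698 percentile of the DHT list. The widest of the 3 was 3598 bp wide, with a score of 70.5.

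Of the genes in protein turnover and signalling, UBE2O, a large ubiquitin-conjugating enzyme, went from 1542 to 10544 bp at chr17:74385634-74401709. Its untreated peak lay almost wholly, 1497 bp of it, under a DHT peak of 4907 bp. ANKS1A, an adaptor protein that binds Eph receptors, had no untreated peak in its block at chr6:35045121-35056991 and 8382 bp covered after DHT by peaks of 4607 and 3775 bp, at the 61.9 and 88.1 percentile of scores. NOTCH3, 1 of the Notch receptors through which neighbouring cells signal by direct contact, had no untreated peak at chr19:15289027-15301116 and 7562 bp covered after DHT. Of its 2 DHT peaks, that of 3662 bp scored 208 and that of 3900 bp scored 62.8. DAPK3, a serine/threonine kinase of the death-associated family that phosphorylates myosin light chain, went from 2205 to 9516 bp at chr19:3957396-3968511. The DHT peaks of 5535 and 3981 bp scored 106 and 107, and the first of them took in 1016 bp of the untreated peak.

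**Figure D2:**
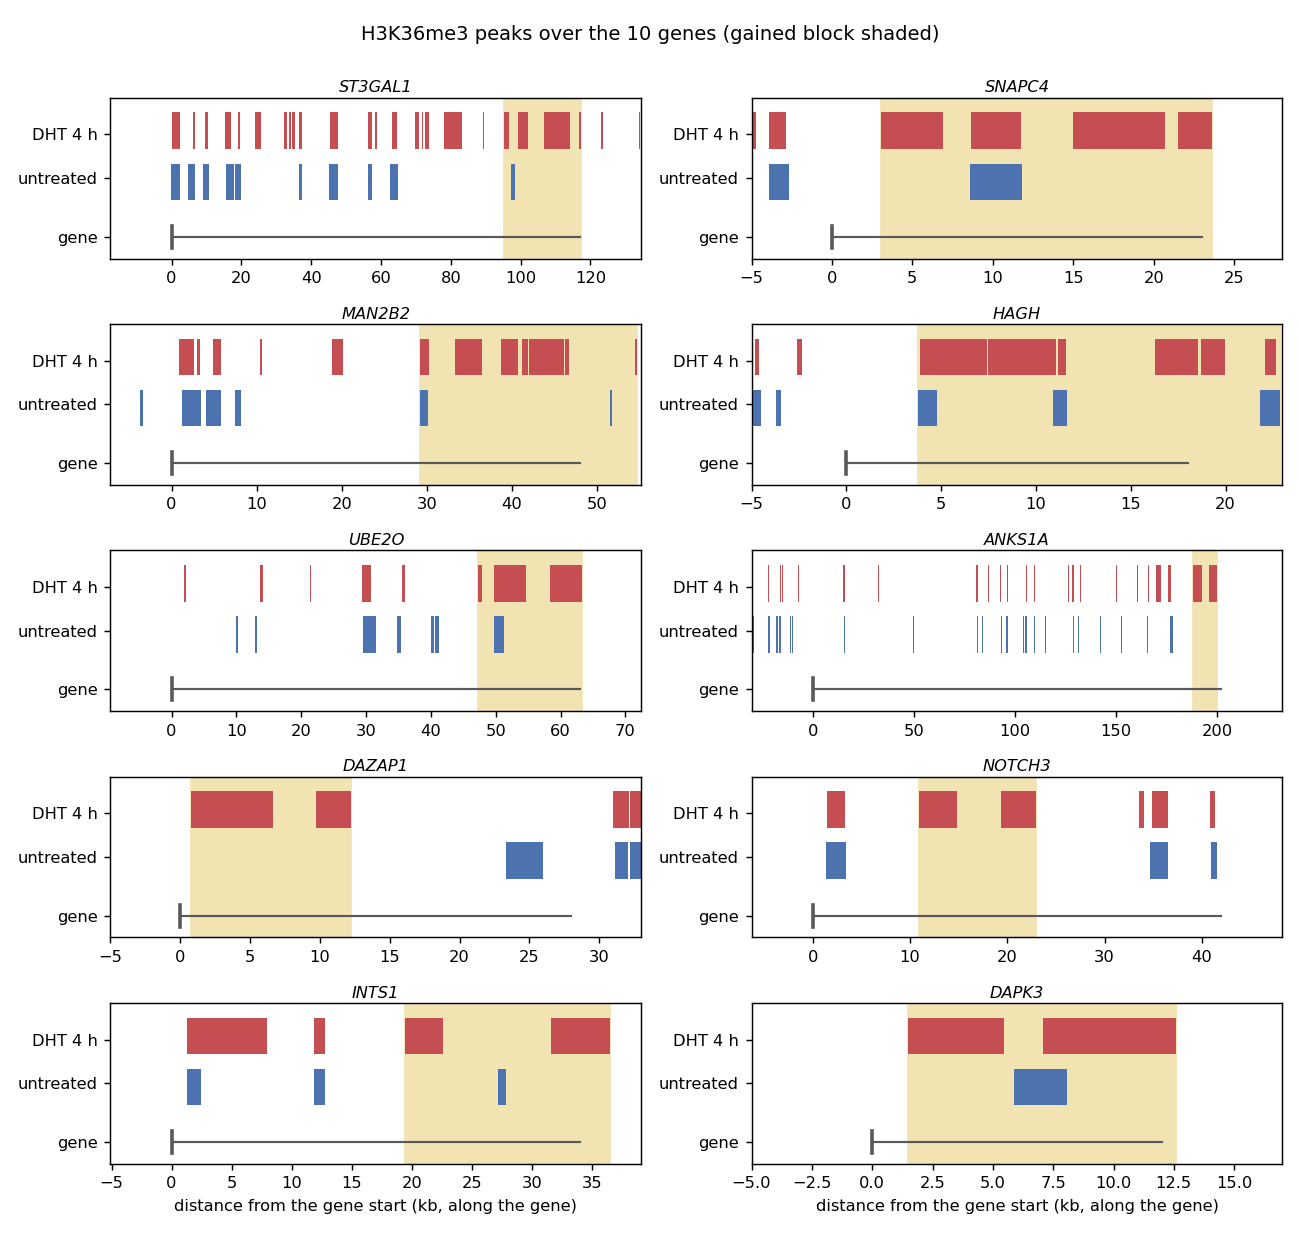
Peaks of both libraries over the 10 genes, drawn against distance from the gene start in kb along the direction of transcription, with the gained block shaded and the gene as a line. The shaded blocks reach or pass the gene end, as given to the kilobase, in 7 of the 10 genes, and ANKS1A, DAZAP1 and NOTCH3 are the exceptions.

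The definition of a gained block makes no use of where in the gene it lies, but whether position played a part in picking these 10 of the 42 is not known. In 7 of the 10 genes the gained block held the listed gene end, and in none did it hold the listed gene start. Gene positions are hg19, given to the kilobase. Strand came from RefSeq (GRCh38.p14) for 8 genes, and ST3GAL1 and SNAPC4 were taken as minus-strand genes from general knowledge. In ST3GAL1 the block began at 81.4% of the gene's length from the start and ran 371 bp past its listed end. In UBE2O it began at 75.1% and ran 367 bp past. In SNAPC4 and DAPK3 it spanned nearly the whole gene, from 13.3% and 12.4% of the length, and passed the end by 617 and 605 bp. In ST3GAL1, UBE2O, SNAPC4 and DAPK3 the overhang was thus shorter than the kilobase to which gene ends are given. Whether these blocks pass the exact end cannot be told. The block of ANKS1A, from 93.1% to 99.0% of a gene of 202 kb, stopped short of the end. The overhang was longer in INTS1 (2492 bp), HAGH (4896 bp) and MAN2B2 (6762 bp). In MAN2B2 it came from small peaks: the last DHT peak of the dense run ended at 6623685, before the gene end at 6625 kb, and past it there were only peaks of 321 bp after DHT and 259 bp in untreated cells. By their order in RefSeq, the next protein-coding genes past these ends are MICALL2 for INTS1, IGFALS for HAGH and MRFAP1 for MAN2B2. How often a block of this length holds a gene end elsewhere in the genome was not analysed here.

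DAZAP1 and NOTCH3 had their blocks in other parts. In DAZAP1 the block started 0.749 kb after the listed gene start and ended at 43.7% of the length. The last part of DAZAP1 showed the opposite: an untreated peak of 2671 bp at chr19:1431300-1433970, scoring 70.0, had no DHT counterpart, and no DHT peak lay in the gene outside the block. In NOTCH3 the block spanned 25.9% to 54.7% of the gene. Peaks on both sides of it were present in both libraries, with the same strong peak near the gene end, chr19:15275470-15277297 in untreated cells and chr19:15275428-15277158 after DHT, at the 99.3 percentile of scores in either list. Between these shared peaks the untreated list had none for 31311 bp.

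**Figure D3:**
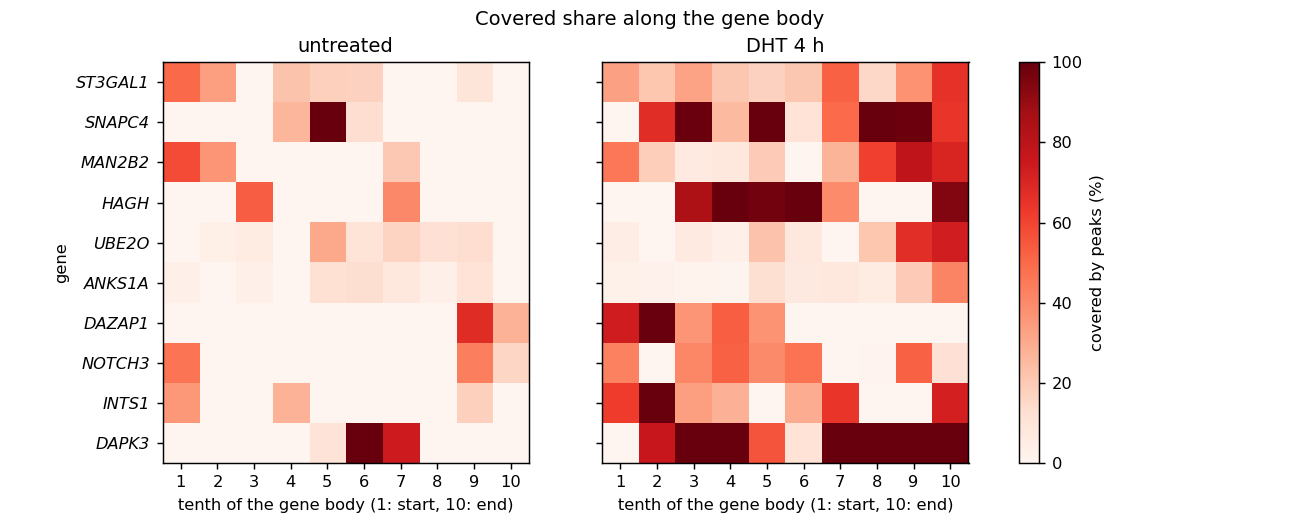
Share of sequence covered by peaks (colour, %) in 10 equal parts of each gene body, from the gene start (1) to the gene end (10), in untreated cells and after DHT. In the last part 8 of the 10 genes were more covered after DHT and 2, DAZAP1 and NOTCH3, less, while in the first part 3 were more and 4 less covered.

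With each gene divided into 10 equal parts, the difference was widest in the last. There the median gene went from 0% covered in untreated cells to 68.1% after DHT, and the mean from 4.32% to 59.3%. The first part had medians of 1.46% and 18.9%, with 3 genes higher after DHT and 4 lower. ST3GAL1 was among the latter, at 50.4% of its first part in untreated cells and 32.8% after DHT, and MAN2B2 too, at 58.0% and 45.8%. Both had peaks near their start in each library. These shares include the blocks that chose the genes, so they describe the pattern and do not test it.

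Promoters were shown where the gained block came closest to the gene start or where a motif was found. RefSeq (GRCh38.p14) promoter windows matched 8 of the 10 genes, with 9 windows in all because HAGH has 2. ST3GAL1 and SNAPC4 had no match. The blocks of DAZAP1 and DAPK3 began closest to a listed start, at 0.749 and 1.489 kb. These distances run from hg19 starts given to the kilobase, not from the GRCh38 starts of the windows, so they are approximate. The 250 bases before each start, with CpG dinucleotides in capitals, hold 40 CpGs in DAZAP1 (chr19:1407336-1407585, plus strand) and 31 in DAPK3 (chr19:3971100-3971349, minus strand).
DAZAP1: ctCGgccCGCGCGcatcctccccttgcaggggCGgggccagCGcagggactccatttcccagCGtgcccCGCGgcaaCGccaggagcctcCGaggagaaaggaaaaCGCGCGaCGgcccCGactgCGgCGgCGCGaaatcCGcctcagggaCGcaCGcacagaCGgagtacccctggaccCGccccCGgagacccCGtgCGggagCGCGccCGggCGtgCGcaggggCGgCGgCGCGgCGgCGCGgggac
DAPK3: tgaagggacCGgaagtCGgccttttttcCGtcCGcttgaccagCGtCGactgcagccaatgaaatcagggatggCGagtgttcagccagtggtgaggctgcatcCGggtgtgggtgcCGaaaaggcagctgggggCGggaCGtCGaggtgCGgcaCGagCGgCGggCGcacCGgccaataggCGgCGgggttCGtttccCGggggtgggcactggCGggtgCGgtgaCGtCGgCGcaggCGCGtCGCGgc
Windows of 300 bases held a median of 38 CpGs in the 9 windows of these genes and 21 over 22199 windows of protein-coding genes. The half-site of the androgen response element, AGAACA on either strand (TGTTCT on the other), was found in 1 of the 9 windows, or 11.1%, and in 11.7% of all 22199. A pair of half-sites facing each other across 3 bases was in none of them. The 1 match lay in the upstream window of HAGH, with its first base 93 bases before the start (position -93), and is shown in capitals in the 30 bases around it, chr16:1827270-1827299 on the minus strand.
HAGH: ccacgcagacgaTGTTCTttccccactccc
Such a match describes the letters only. Over the first kilobase of the listed gene span, DHT peaks were present in ST3GAL1, MAN2B2 and DAZAP1 and untreated peaks in ST3GAL1 alone. In MAN2B2 and DAZAP1 they began 0.883 and 0.749 kb in. With starts given to the kilobase, these peaks may lie beyond the first kilobase of the gene itself.

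Outside the gained blocks the same genes differed less. The blocks were chosen at 4-fold or more, and the rest leaves out every gained block. A smaller ratio in the rest is therefore built into the choice and tests nothing. The rest of the gene bodies, 436 kb in all, had 45208 bp covered in untreated cells (10.4%) and 56553 bp after DHT (13.0%), a ratio of 1.25 whose counting interval (0.757 to 2.07) includes 1. That depended on the peaks and blocks used. In the higher-scoring 50% of each list the ratio was 1.99 (0.970 to 4.10). With only peaks scoring at least 75 or 100 in both lists it was 2.09 (1.09 to 4.01) and 2.44 (1.06 to 5.58), and with blocks joined at 2 kb, which leaves parts of the gained blocks in the rest, 1.72 (1.09 to 2.71), so these 3 intervals exclude 1. At the same score minimums the flank ratio was 1.35 and 1.60, against 1.18 with all peaks, and both intervals include 1. Median scores were 85.7 in the DHT list and 81.2 in the untreated list. The genome-wide ratio at these minimums was not analysed here. Of the 10 genes, 7 had at least 1 kb covered in the rest in either library, and in SNAPC4, HAGH and DAPK3 the rest, at most 3802 bp, had no peak at all. By a 1.5-fold rule, 2 of the 7 were higher after DHT, 1 was lower and 4 lay between. Over windows of 25 kb with at least 1 kb covered, taken genome-wide, 21.4% were as much higher and 21.5% as much lower. Counts of 2 and 1 among 7 genes do not stand out from these shares. The comparison is rough, since the rests were 16515 to 190129 bp long and left out the gained blocks, which the windows did not.

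The 2 genes above that threshold were INTS1 and ST3GAL1. In INTS1 the rest went from 2160 to 7595 bp (3.52-fold), nearly all of it from a DHT peak of 6647 bp, chr7:1536067-1542713, over the first part of the gene, where the untreated library had a peak of 1219 bp. ST3GAL1 went from 16565 bp in 9 peaks to 24908 bp in 20 peaks (1.504-fold), only just past the rule. DAZAP1 was the gene below it, with 2671 bp in untreated cells and none after DHT. In each of these genes the counting interval of DHT minus untreated covered length took in both signs. It was -8066 to 18936 bp in INTS1, -8464 to 25150 bp in ST3GAL1 and -7906 to 2564 bp in DAZAP1. MAN2B2 (4546 and 4707 bp), NOTCH3 (4444 and 4513 bp), ANKS1A (10608 and 11984 bp) and UBE2O (4214 and 2846 bp) differed by less than 1.5-fold. Of the untreated covered sequence in the rest 57.2% was also covered after DHT, and of the DHT sequence there 45.7% had been covered in untreated cells, against 49.7% and 48.5% over all peaks. In the blocks 69.2% of the untreated sequence was also covered after DHT, but this made up 8.50% of the DHT sequence there.

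**Figure D4:**
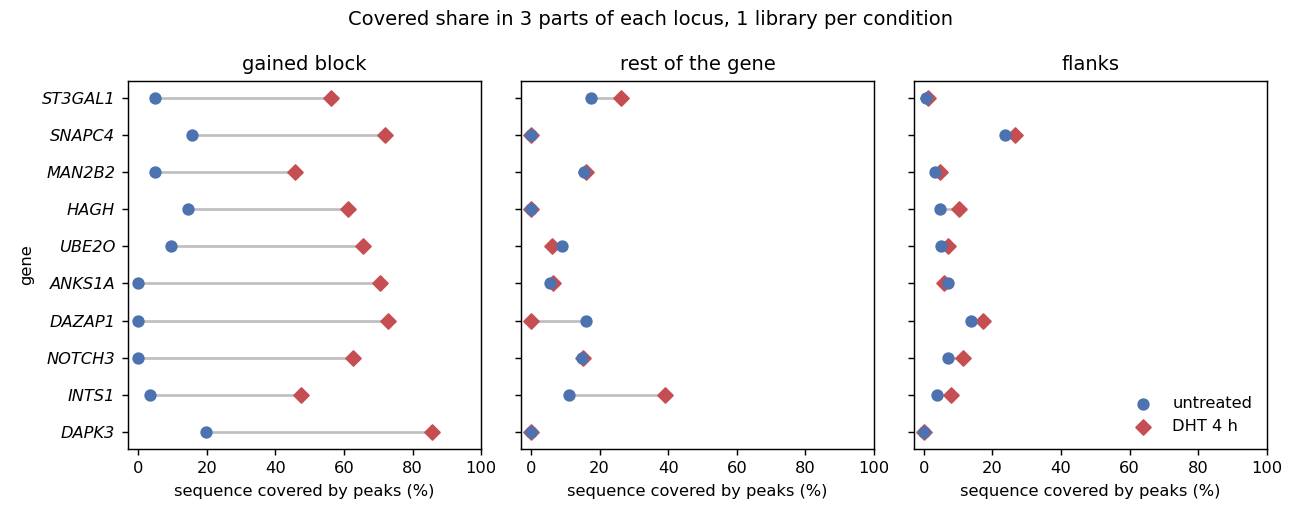
Share of sequence covered by peaks (%) in the gained block, the rest of the gene body and the flanks of each gene, in untreated cells (circles) and after DHT (diamonds). In the blocks all 10 genes run from at most 19.8% to at least 45.8%. The rule fixed a rise of at least 4-fold there, but not these shares. In the rest of the gene INTS1, ST3GAL1 and DAZAP1 show the widest gaps.

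Flanking sequence, as long as the gene on each side and at least 20 kb, had 67443 bp covered in untreated cells and 79645 bp after DHT, a ratio of 1.18 (0.781 to 1.79). Beside ANKS1A, the longest of the genes, 28245 bp were covered in untreated cells and 23729 bp after DHT. Beside DAPK3, which lies between EEF2 and NMRK2 in the RefSeq order, neither library had a peak within 20 kb of the gene outside the block. Next to SNAPC4, where ENTR1 precedes the gene start, the flanks had 10727 bp covered in untreated cells and 12091 bp with DHT.

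The DHT peaks that made up the blocks were few and wide, and their scores were ordinary. There were 36 of them with a median width of 3154.5 bp, against 354 bp in the whole DHT list. At least 2 kb wide were 24 of the 36 (66.7%), against 2.05% of the list and 5 of the 65 DHT peaks in the rest of the same genes. In 6 of the genes, SNAPC4, ANKS1A, DAZAP1, NOTCH3, INTS1 and DAPK3, such wide peaks made up all of the DHT covered length in the block. The median score was 85.7, equal to the list's to 3 digits, and 18 of the 36 peaks scored below it. Among peaks of at least 2 kb, however, those in the blocks scored lower: their median was 87.7, against 160 for all 2700 DHT peaks of that width and 142 for the 1423 of them in compared blocks. The widest peak of each block scored from 60.2 in INTS1 to 146 in MAN2B2, and in 5 of the 10 genes it was below the list median. Width is part of covered length, on which the genes were chosen, so these widths too are a description.

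**Figure D5:**
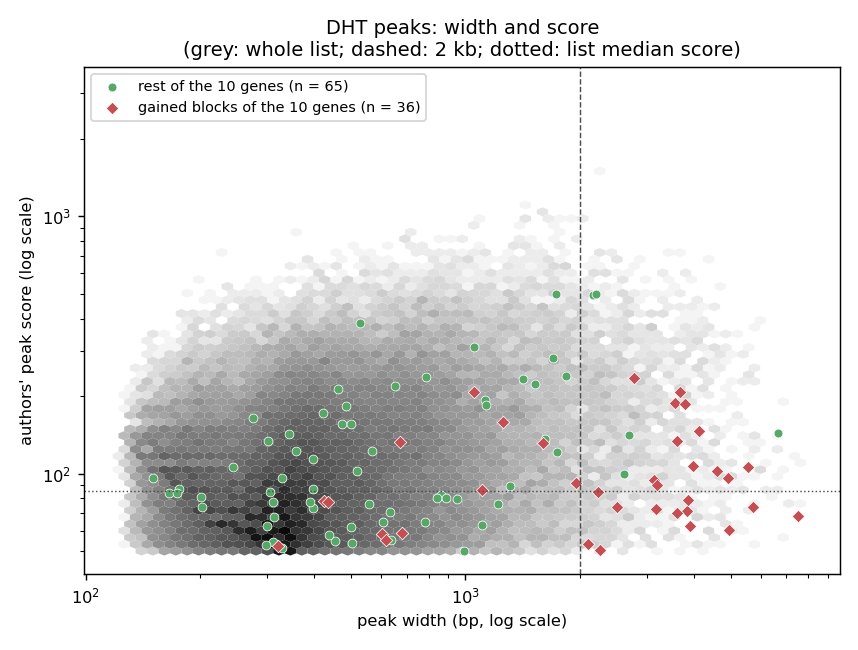
Width (bp, log scale) and the authors' score (log scale) of all DHT peaks (grey), of the 36 in the gained blocks (diamonds) and of the 65 in the rest of the 10 genes (circles). Right of the 2 kb line, the block peaks have a median score of 87.7, under the 160 of all DHT peaks of that width.

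The other 32 gained blocks resembled these 10 in part. Their medians went from 1240 to 7092 bp covered, against 1164 to 10030 bp here, and 38.4% of their DHT peaks were at least 2 kb wide, with a median score of 110. The 13 blocks lost by the same rule (0.486% of those compared) had the mirrored makeup in the untreated library. There 56.4% of untreated peaks were at least 2 kb wide, with a median score of 86.8, against 138 for all untreated peaks of that width and 123 for those in compared blocks. Whether another library of the same condition would show the same blocks was not tested.

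By position in the chromosome, 5 of the 10 genes lay within 5 Mb of a chromosome end: DAZAP1 (1.41 Mb), INTS1 (1.51 Mb), SNAPC4 (1.78 Mb), HAGH (1.86 Mb) and DAPK3 (3.96 Mb). Of all compared blocks 19.5% lay that close, and among them 3.45% were gained, against 1.11% of the blocks farther in. Within 5 Mb of an end also lay 13 of the other 32 gained blocks (40.6%) and 4 of the 13 lost blocks (30.8%). ANKS1A was farthest from an end, at 34.9 Mb. Members on chromosome 19 numbered 3, and the share of all compared blocks on that chromosome was not analysed here.

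The call of a gained block depended on how peaks were joined and on the weaker peaks. With peaks joined only up to 2 kb apart, DAPK3 alone met the rule, since the pieces of the other 9 were under 10 kb. Joined up to 10 kb apart, the blocks took in neighbouring shared peaks, and NOTCH3, INTS1 and DAPK3 met the rule, with all 10 between 2.03-fold and 5.68-fold. In the higher-scoring 50% of each list, MAN2B2, UBE2O, ANKS1A and DAPK3 met it, and DAZAP1 and INTS1 had no peak of either library left in the block. DAPK3 was the only gene that met the rule in each of these 3 settings. Its block was the same at 2 and 10 kb. At 8-fold, however, DAPK3 did not meet the rule, whereas ST3GAL1, MAN2B2, ANKS1A, DAZAP1, NOTCH3 and INTS1 did.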

How the data were processed

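The authors deposited 1 list of peaks per H3K36me3 library, with positions in bp and a score per peak from 50 to 3100 whose scale is not stated. The peak names show MACS as the caller and the file names give hg19 as the build. Of the aligner, the caller's settings and control, and the numbers of reads, nothing is stated. Mitochondrial peaks were left out, and intervals are printed counting from 1. Covered lengths, joined blocks and shares were computed with NumPy 2.4.6 and pandas 2.3.3 under Python 3.11.15, and were tested on simulated peaks. Gene bodies were the listed hg19 spans, given in kb. Exons, introns, family members and the line's marker genes could not be placed without an hg19 annotation and were not analysed here. The 95% counting interval of a ratio sums squared peak widths. A chromosome end is position 1 or the end of the last peak. All 10 members are named, by rule, with the widest DHT peak of each block. The members, lists and rules were chosen with earlier results of these data known. Alternatives were other lists (higher-scoring 50%, equal covered length, joined at 1 kb, without peaks of at least 2 kb), joining at 2 or 10 kb, other thresholds, and, chosen after seeing the data, score minimums and leaving out each gene.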

Additional observations from a re-analysis of the deposited data

How the results depend on the processing

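The number of genes with a called block, 10, was 4 in the higher-scoring 50% of each list, 1 with peaks joined at 2 kb, 3 at 10 kb, 6 at 8-fold, and 4 and 2 at scores of at least 75 and 100. It was 9 with lists trimmed to the same covered length, and 10 at 2-fold or with 2.5 kb covered. The pooled block ratio, 8.14, was 1.48 (0.552 to 3.95) without peaks of at least 2 kb, 2.48 with blocks joined at 10 kb, 12.8 at 2 kb, 14.5 in the higher-scoring 50%, and 6.40 and 23.3 at scores of at least 75 and 100. At 2 and 10 kb, a gene without a called block entered with its joined block of largest rise. In INTS1 at 2 kb this stand-in block lies outside the gained block described above. The ratio in the rest of the genes, 1.25, was 0.618 with blocks joined at 10 kb, where little of the genes is left outside, 1.72 at 2 kb and 1.99 in the higher-scoring 50%. At score minimums of 75 and 100 it was 2.09 and 2.44, provided that the lists share a scale. The interval of the rest excludes 1 at 2 kb, where parts of the gained blocks chosen for their rise fall in it, and at both score minimums. At those minimums the flank ratio was higher too, 1.35 and 1.60 against 1.18. Genes with the rest at least 1.5-fold higher, 2, numbered 4 in the higher-scoring 50% and at both score minimums, and 1 with trimmed lists, without peaks of at least 2 kb or at 2-fold. Blocks holding the listed gene end, 7, numbered 3 with joining at 2 kb, stand-in blocks included. Leaving out each gene in turn gave 7.48 to 9.34 for blocks, 1.10 to 1.33 for the rest and 1.14 to 1.43 for flanks. No paired analysis was possible because each condition has 1 library. Read depth is unknown, so what it limits cannot be given.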
